A study of Mus musculus with 4 samples.

Results

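The 10 genes described here encode coat, fusion and budding proteins of the lipid droplet. The coat genes are the perilipins Plin1 to Plin5 and the fusion genes the CIDE genes Cidea, Cideb and Cidec. The budding genes are the fat storage-inducing transmembrane genes Fitm1 and Fitm2. All 10 were chosen by name. All array probes that are not controls and whose deposited gene name is among the 10 were taken, which gave 13 probes for 10 genes, out of 31375 probes for 22327 genes that had a RefSeq symbol. Cideb, Cidec and Fitm2 had 2 probes each and the other members 1 probe each. The samples were liver and white adipose tissue (WAT) of Pnpla7-/- mice, called labelled knockout here, and of wild-type (WT) mice, all of the C57BL/6N strain and 4 weeks of age. Each of the 4 groups (labelled-knockout liver, wild-type liver, labelled-knockout WAT, wild-type WAT) was represented by 1 Agilent array, hybridised with a pool of RNA from 5 animals. The labels do not state how the allele was made, the sex of the mice or the fat depot, and the extraction protocol in the labels speaks of livers for all 4 samples.

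A lipid droplet is a core of triglyceride and sterol ester under a single layer of phospholipid, and the proteins on that layer decide how lipases reach the core. Perilipins coat the droplet. Plin1 is the coat protein of adipocytes that holds back lipolysis until it is phosphorylated, Plin2 is the general coat protein that is abundant in liver, Plin3 is a widely expressed coat protein that moves between cytosol and small droplets, Plin4 is found mostly in adipocytes, and Plin5 is the perilipin of oxidative tissues, where it links droplets to mitochondria. CIDE proteins sit where droplets touch and pass lipid from the smaller to the larger droplet. Cidec (also called FSP27) is needed for the single large droplet of white adipocytes and is known to be induced in fatty mouse liver, Cidea is known from brown fat, and Cideb is the hepatocyte member, with a role in loading lipid on very-low-density lipoprotein. The FITM proteins lie in the endoplasmic reticulum and act in the budding of new droplets, Fitm1 mainly in muscle and Fitm2 in many tissues. PNPLA7 is a lysophospholipase, and the series as titled concerns the breakdown of phosphatidylcholine, the main lipid of the droplet surface.

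In the labelled-knockout liver, Cidec and Cidea were more than 5-fold above wild type, while the 7 other measured members lay within 2-fold. In the labelled-knockout WAT, Fitm1, Plin5 and Cidea were at least 3-fold above wild type and the other 7 members lay within 2-fold. Cidea was the only member at least 2-fold higher in both tissues, and 0 of the members measured in a tissue (9 in liver, 10 in WAT) were at least 2-fold lower there. Each group had 1 array, so these differences have no replicate check and carry no p-value.

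A probe of Cidec and that of Fitm1, the members with the largest ratio in liver and in WAT, are printed first, because the values rest on these 60-base oligonucleotides. Both are given in the sense direction, 5′ to 3′, as in the scanner files. The Cidec oligonucleotide begins at transcript base 552 and maps to the minus strand of chromosome 6, 113378116-113378175 (mm9). The Fitm1 oligonucleotide starts at base 223 of its transcript and its ends lie on chromosome 14 at 56194734 and 56195160 (mm9), a span of 427 bases for 60 bases of sequence, so that it crosses at least 1 exon junction. Each of these 2 sequences has 1 reading frame of the sense strand with no stop codon.
Cidec probe: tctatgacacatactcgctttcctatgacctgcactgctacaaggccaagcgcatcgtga
Fitm1 probe: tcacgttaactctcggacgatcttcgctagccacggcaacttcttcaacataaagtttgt
The second Cidec probe starts at base 1642 of the same transcript, at 113374630-113374689 on chromosome 6 (mm9, minus strand). The other probes lay, on mm9, at 86866112-86866171 of chromosome 7 for Plin1, 86302847-86302906 of chromosome 4 for Plin2, 56418429-56418488 of chromosome 17 for Plin3, 56240055-56240114 of chromosome 17 for Plin4 and 56251025-56251084 of chromosome 17 for Plin5. For Cideb they lay at 56372942-56373001 and 56373658-56373717 of chromosome 14, and for Fitm2 at 163292132-163292191 and 163294444-163294503 of chromosome 2. The Cidea probe starts at base 1066 of its transcript. All of these lie in exons, since the probe positions in the files are counted along transcripts.

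The region before the start of transcription is shown for Cidec, the member with the largest ratio in liver, and for the first of the annotated starts of Plin5, as 250 bases that end just before the annotated start (RefSeq, GRCm38.p6, read along the minus strand). RefSeq places 2 starts of Cidec 996 bases apart. Neither Cidec probe lies at the beginning of the transcript.
Cidec, upstream start, chr6:113435761-113436010: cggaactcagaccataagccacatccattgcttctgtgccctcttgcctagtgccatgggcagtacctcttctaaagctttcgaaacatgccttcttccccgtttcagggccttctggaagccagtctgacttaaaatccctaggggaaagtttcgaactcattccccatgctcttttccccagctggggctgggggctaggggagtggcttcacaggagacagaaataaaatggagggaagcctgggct
Cidec, downstream start, chr6:113434765-113435014: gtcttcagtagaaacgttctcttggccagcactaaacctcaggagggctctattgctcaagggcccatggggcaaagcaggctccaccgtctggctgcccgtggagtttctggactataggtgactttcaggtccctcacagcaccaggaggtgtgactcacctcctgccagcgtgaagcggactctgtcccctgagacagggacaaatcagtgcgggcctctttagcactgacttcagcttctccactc
Plin5, chr17:56117549-56117798: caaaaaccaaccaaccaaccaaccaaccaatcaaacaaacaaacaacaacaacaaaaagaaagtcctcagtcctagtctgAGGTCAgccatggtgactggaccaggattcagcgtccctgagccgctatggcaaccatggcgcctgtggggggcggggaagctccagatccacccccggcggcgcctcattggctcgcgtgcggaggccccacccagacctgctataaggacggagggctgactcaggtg
Capitals mark AGGTCA, the hexamer that nuclear receptors such as the PPARs bind in pairs. It was searched on both strands together with its direct repeat with 1 base of any kind between the copies (DR1), the E-box CACGTG and the TATA box TATAAA in 11 such regions of the 9 members other than Cidea. AGGTCA stood in 2 of the 11, those of Plin2 (218 bases before the start) and Plin5 (170 bases before it), and in 14.0% of 32851 promoters of the same length. The direct repeat, which contains that hexamer, stood in 0 of the 11 and in 0.0335% of all promoters. CACGTG stood in 0 of the 11 and in 6.02% of all promoters, and TATAAA in 1, that of Cideb, and in 12.4% of all promoters. A match of letters is a description of the sequence and not a binding site.

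Levels are given as relative signal, the processed intensity of a probe divided by the 75th percentile of its own array, so that 1 is the level of the 75th percentile. Differences are log2 ratios of the first-named array to the second. Probes differ in how well they bind, so levels are compared between arrays for the same probe and never between probes. Between 65.5% and 72.6% of spots were well above background on the 4 arrays, and 0 were saturated. All 13 member probes were well above background on all 4 arrays, except for Plin1 in labelled-knockout liver. The scanner software's error of a log2 ratio is printed after ± for single probes; it had a median of 0.20 in both tissues and was largely set by a preset multiplicative error of 0.1. Where a gene had several probes, their log2 ratios scattered with an SD, pooled over genes, of 0.20 for liver and 0.23 for WAT. Repeat spots of the same probe scattered less, with a median SD of 0.04 for liver and 0.05 for WAT. Neither error covers the spread between animals. In RNA from whole tissue, a change in the share of a cell type and a change of RNA per cell cannot be told apart.

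The targeted gene gave no check of the labels. Pnpla7 had a relative signal of 7.98 in labelled-knockout liver and 9.04 in wild-type liver, and of 0.372 in labelled-knockout WAT and 0.739 in wild-type WAT, which are log2 ratios of -0.18 ± 0.20 and -0.99 ± 0.21. The labels do not name the deleted part of the gene, and a probe that lies outside it cannot check the genotype. The tissue labels mostly fitted the marker lists. All 12 hepatocyte markers were at least 2-fold lower in wild-type WAT than in wild-type liver, beside 15.6% of all measured genes. Of 10 adipocyte markers measured on both arrays, 8 were at least 2-fold higher in WAT, beside 18.1% of all genes, and 1 (Pck1) was lower. The adipocyte genes Adipoq, Lep, Cfd and Lgals12 were not well above background in either liver.

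**Figure D1:**
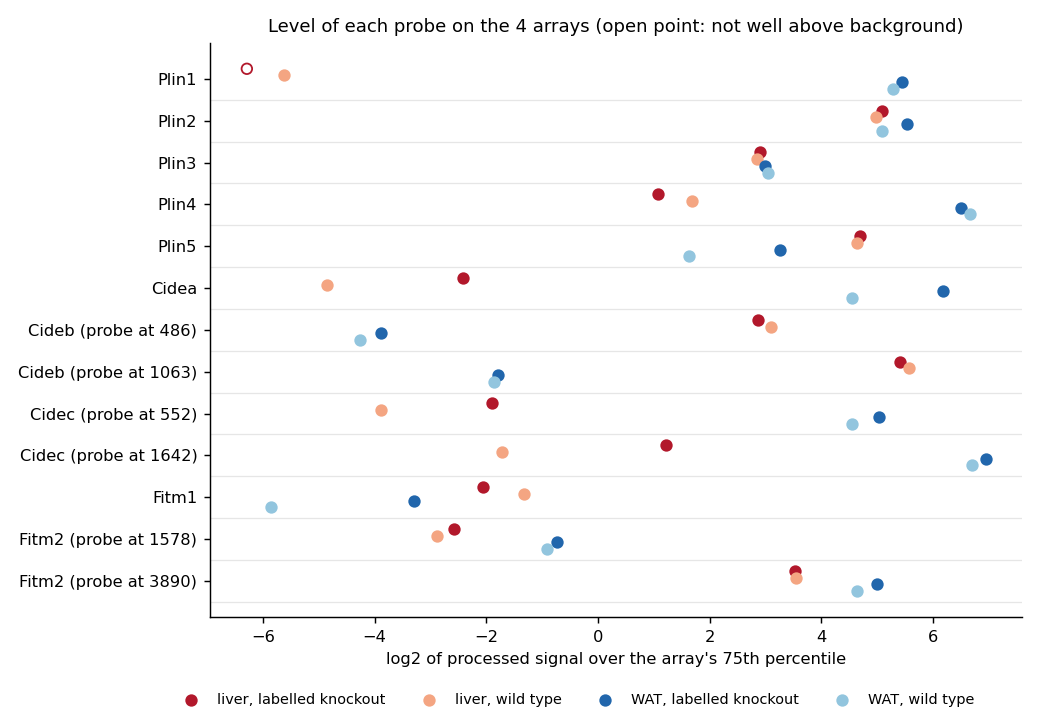
Relative signal of each of the 13 probes (rows) on the 4 arrays, on a log2 axis where 0 is the array's 75th percentile, 1 point per array. The red points of Cidec and Cidea stand to the right of the orange ones (labelled-knockout liver above wild-type liver), and the dark blue points of Cidea, Plin5 and Fitm1 to the right of the light blue ones (labelled-knockout WAT above wild-type WAT). The levels of different rows are not comparable.

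The comparison of labelled-knockout with wild-type liver asks how the droplet genes differ between the labelled genotypes in liver. Cidec was higher with both of its probes. The probe at base 552 had a relative signal of 0.269 in labelled-knockout liver and 0.0674 in wild-type liver, a log2 ratio of 1.99 ± 0.23. The probe at base 1642 had 2.32 in labelled-knockout liver and 0.304 in wild-type liver, a log2 ratio of 2.93 ± 0.21. The 2 probes had the same direction and differed by more than their errors, and their mean log2 ratio of 2.46, a 5.51-fold difference, was the 20th highest of 15568 measured genes. Cidea had 0.187 in labelled-knockout liver and 0.0344 in wild-type liver, a log2 ratio of 2.44 ± 0.27 or 5.44-fold, the 22nd highest. The wild-type signal of Cidea was dim: the lowest signal that still counted as well above background on that array was 0.0173. With normexp background correction, run on the mean and background signals, the log2 ratio of Cidea was 0.83 with an offset of 50 and 1.03 with an offset of 0, and that of Cidec was 1.73 and 1.87.

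The other CIDE gene and the perilipins of hepatocytes were nearly level in liver. Cideb, the abundant hepatocyte member, had 42.3 in labelled-knockout liver and 47.6 in wild-type liver with its probe at base 1063, and 7.30 and 8.55 with its probe at base 486, a mean log2 ratio of -0.20. Plin2 had 34.1 in labelled-knockout liver and 31.7 in wild-type liver, a log2 ratio of 0.11 ± 0.20. Plin5 had 26.0 in labelled-knockout liver and 25.0 in wild-type liver, a log2 ratio of 0.06 ± 0.20. The differences of Plin2 and Plin5 were within the error of a ratio, and that of Cideb was of the size of the SD between probes and turned to 0.06 without scaling between arrays. Without scaling, Plin2 was at 0.37, Plin5 at 0.32 and Plin3 at 0.32, all past the error, but the median of all measured genes was then 0.23. With quantile normalization Plin2 was at 0.29, also past the error. Plin3 had 7.51 in labelled-knockout liver and 7.23 in wild-type liver (0.05 ± 0.20).

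Plin4 and Fitm1 had the lowest ratios of the members in liver, past the scanner error but within 2-fold. Plin4 had 2.11 in labelled-knockout liver and 3.21 in wild-type liver, a log2 ratio of -0.61 ± 0.20. Fitm1 had 0.239 in labelled-knockout liver and 0.397 in wild-type liver, a log2 ratio of -0.73 ± 0.21. Fitm2 had 11.6 on both liver arrays with the probe at base 3890, and 0.168 in labelled-knockout liver and 0.136 in wild-type liver with the probe at base 1578, a mean log2 ratio of 0.15. Plin1, the adipocyte coat protein, was at the edge of detection. It had 0.0128, not well above background, in labelled-knockout liver and 0.0203 in wild-type liver. The wild-type signal was 1.36-fold above 0.0149, the lowest signal well above background on the labelled-knockout array. That is not a lower bound of a ratio, because a brighter probe, that of Prdm16 at 0.0198, was not well above background there.

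Of the 10 members, 9 were measured on both liver arrays, and 2 of the 9 were at least 2-fold higher in labelled-knockout liver, where 1.75% of all 15568 measured genes were at least 2-fold higher. At least 2-fold lower were 0 of the 9, beside 0.886% of all genes. The median log2 ratio was 0.06 over these 9 members and -0.03 over all measured genes. The 2 members that differed are both CIDE genes, and neither perilipins nor FITM genes reached 2-fold in liver. With normexp and an offset of 50, Cidec alone stayed at least 2-fold higher.

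Cell type markers were read beside these genes. Of the 14 adipocyte markers, 10 were measured on both liver arrays, with Lpl (lipoprotein lipase) at a log2 ratio of 1.02, Car3 at -1.24 and a median of -0.18, and their summed relative signal was 158 in labelled-knockout liver and 219 in wild-type liver. Besides Lpl, Fabp4 (0.56), Cd36 (0.49) and Pparg (0.38) had positive log2 ratios and the 6 other measured markers negative ones. Adipoq, Lep, Cfd and Lgals12 were not well above background on either liver array. Of 12 measured markers of lipid-associated macrophages, 4 were at least 2-fold higher and 0 lower, beside 1.75% and 0.886% of all genes, 8 were within 2-fold, and the list median was 0.41. Among the 4, Trem2, a lipid receptor of macrophages, had 0.594 in labelled-knockout liver and 0.109 in wild-type liver, a log2 ratio of 2.45, Lgals3 (galectin 3) had 1.38 and the integrin gene Itgax 1.26. The summed relative signal of that list was 93.9 in labelled-knockout liver and 80.8 in wild-type liver, and the 8 markers within 2-fold ran from -0.21 (Spp1) to 0.67 (Cd9), with the general macrophage gene Adgre1 at 0.11 and the Kupffer cell gene Clec4f at -0.21. Gpnmb was well above background in labelled-knockout liver alone, at 0.149, and Lpl stands in both lists. All 12 hepatocyte markers were within 2-fold, with sums of 1620 in labelled-knockout liver and 1920 in wild-type liver, as were the 5 measured muscle, 8 thermogenic and 9 stellate and fibroblast markers, and of 8 epithelial markers 1 (Wfdc2, -1.04) was lower. The part of these cell types in the Cidec and Cidea values was not tested.

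**Figure D2:**
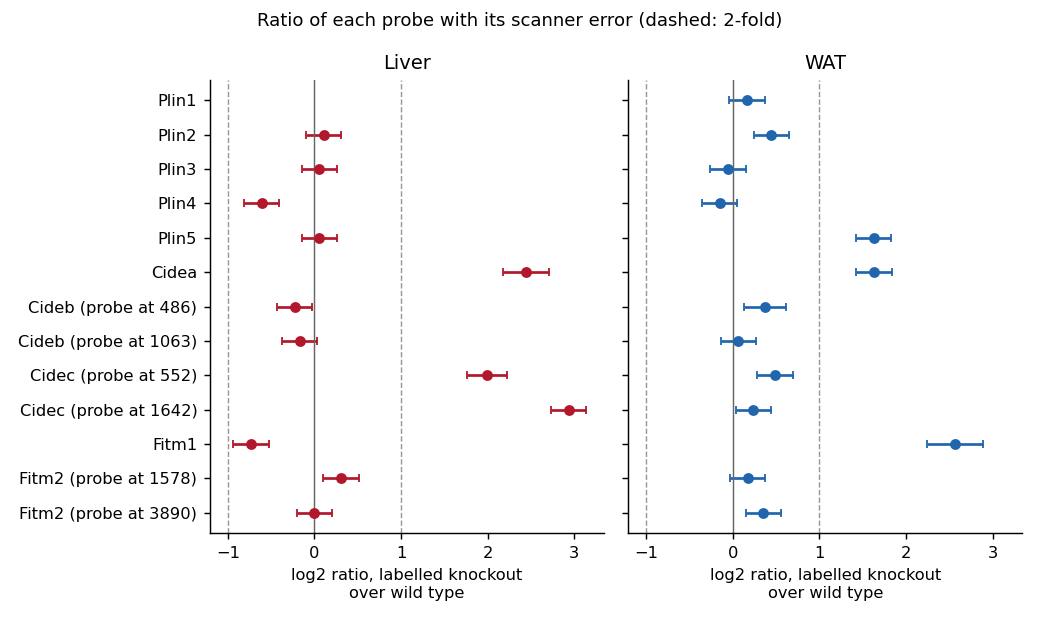
Log2 ratio of labelled knockout over wild type for each of the 13 probes in liver (left) and WAT (right), with bars for the scanner software's error of a ratio and dashed lines at 2-fold. In liver both Cidec probes (1.99 and 2.93) and Cidea (2.44) lie past the 2-fold line, and in WAT Fitm1 (2.57), Cidea (1.63) and Plin5 (1.63). Plin1 has no point in liver because it was not well above background on the labelled-knockout array.

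In WAT the comparison of labelled knockout with wild type asks the same of the tissue whose cells are built around a droplet. Fitm1, the muscle FITM gene, had the largest ratio. Its relative signal was 0.102 in labelled-knockout WAT and 0.0172 in wild-type WAT, a log2 ratio of 2.57 ± 0.32 or 5.92-fold, the 40th highest of 16131 measured genes. Wild-type WAT was near the limit of detection for this probe, since the lowest signal well above background there was 0.0126, and the log2 ratio was 1.30 with normexp and an offset of 50 and 1.86 with an offset of 0.

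Cidea and Plin5, the droplet proteins of thermogenic and oxidative cells, differed by similar factors in WAT. Cidea had 72.4 in labelled-knockout WAT and 23.4 in wild-type WAT, a log2 ratio of 1.63 ± 0.20 or 3.10-fold. Plin5 had 9.53 in labelled-knockout WAT and 3.09 in wild-type WAT, a log2 ratio of 1.63 ± 0.20 or 3.09-fold. They ranked 126th and 129th of all measured genes from the top. Both probes were bright on both WAT arrays, and over all 10 alternative settings the log2 ratio was between 1.47 and 1.65 for Cidea and between 1.56 and 1.66 for Plin5. Only the normexp, quantile and scaling settings could move these ratios. The deposited table, the other filters, the brightest probe and outlier spots kept leave a bright gene with 1 probe as reported.

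The coat proteins of white adipocytes were nearly level. Plin1 had 43.7 in labelled-knockout WAT and 39.0 in wild-type WAT, a log2 ratio of 0.17 ± 0.20, which was -0.08 with quantile normalization. Plin4 had 90.9 in labelled-knockout WAT and 101 in wild-type WAT, a log2 ratio of -0.15 ± 0.20. Both were within the scanner error as scaled here, but Plin4 was past it at -0.34 with quantile normalization and -0.22 without scaling. Cidec, which differed in liver, had 123 in labelled-knockout WAT and 104 in wild-type WAT with the probe at base 1642 (0.24 ± 0.20), and 32.9 and 23.5 with the probe at base 552 (0.49 ± 0.20). Its mean log2 ratio of 0.36 in WAT is a 1.28-fold difference, small beside the 5.51-fold difference of the same gene in liver.

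Plin2 had 46.3 in labelled-knockout WAT and 34 in wild-type WAT, a log2 ratio of 0.45 ± 0.20, and 0.21 with quantile normalization. Plin3 had 7.93 in labelled-knockout WAT and 8.22 in wild-type WAT, a log2 ratio of -0.05 ± 0.20. Fitm2 had a mean log2 ratio of 0.26, from 31.9 in labelled-knockout WAT and 24.9 in wild-type WAT at the probe at base 3890 and 0.597 and 0.530 at the probe at base 1578. Cideb was low in WAT, with 0.289 in labelled-knockout WAT and 0.276 in wild-type WAT at the probe at base 1063 and 0.0678 and 0.0522 at the probe at base 486, a mean log2 ratio of 0.22. The ratio of Plin2 was past its scanner error and the SD between probes, and none of these 4 genes reached 2-fold.

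All 10 members were measured on both WAT arrays, and 3 of 10 were at least 2-fold higher in labelled-knockout WAT, where 2.16% of all 16131 measured genes were at least 2-fold higher. At least 2-fold lower were 0 of 10, beside 2.01% of all genes. The median log2 ratio was 0.31 over the members and 0.02 over all measured genes. The 3 members that differed are 1 perilipin, 1 CIDE gene and 1 FITM gene.

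Thermogenic and muscle markers were higher on the same array. Of 13 thermogenic adipocyte markers, 12 were measured in WAT, and 9 of 12 were at least 2-fold higher and 0 lower, beside 2.16% and 2.01% of all genes. The summed relative signal of the list was 154 in labelled-knockout WAT and 42.0 in wild-type WAT. Ucp1, the uncoupling protein of brown fat, had 55.7 in labelled-knockout WAT and 6.79 in wild-type WAT (log2 ratio 3.04). Elovl3, a fatty acid elongase, was at 5.05, Dio2, which activates thyroid hormone, at 2.98 and the proton channel gene Otop1 was 3.99-fold higher. Elovl3 was dim in wild-type WAT, at 0.0277, where the lowest signal well above background was 0.0126. Lhx8 was not well above background on any array, and Zic1 (measured by 1 of its probes), Prdm16 and Ebf2 were within 2-fold. Skeletal muscle markers differed more: of 14 measured markers, 13 passed 2-fold upward and 0 downward, beside the same shares of all genes. The list median was 3.46, and the summed relative signal was 73.9 in labelled-knockout WAT and 9.68 in wild-type WAT. The fast myosin gene Myh4 had 20.8 in labelled-knockout WAT and 0.783 in wild-type WAT, and Pvalb, Ttn and Ckm were at log2 ratios of 4.79, 4.76 and 4.66. The ratio of Ttn rests on 1 of its 4 probes. In wild-type WAT the signals of Ttn (0.015 as the mean of its probes) and Ckm (0.0427) were dim.

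The other lists moved less in WAT. Their counts stand beside 2.16% of all measured genes at least 2-fold higher in labelled-knockout WAT and 2.01% lower. Of 14 adipocyte markers 13 were within 2-fold, with Lep (leptin) at -1.99, a median of 0.12 and a summed relative signal of 1230 in labelled-knockout WAT and 1120 in wild-type WAT. Adipoq had 130 in labelled-knockout WAT and 126 in wild-type WAT. Epithelial markers were higher in 3 of 7 measured genes, led by Wfdc2 at 6.87 and Cldn3 at 4.58, with a summed relative signal of 8.79 in labelled-knockout WAT and 2.59 in wild-type WAT. The wild-type WAT signals of Wfdc2 and Cldn3 were dim, at 0.0231 and 0.0295, where the lowest signal well above background was 0.0126. No ratio with normexp is given for them. Macrophage markers had 1 of 11 higher and 0 lower, with a median of -0.30 and sums of 292 in labelled-knockout WAT and 260 in wild-type WAT. Hepatocyte markers had 5 of 12 lower and 0 higher, with a median of -0.80 and sums of 231 in labelled-knockout WAT and 168 in wild-type WAT. That sum ran against the median because of Cyp2e1, with 126 in labelled-knockout WAT and 66.9 in wild-type WAT, and Trf, with 96.7 in labelled-knockout WAT and 80.6 in wild-type WAT. Sums add probes that bind unequally and follow the brightest. Of 7 stellate and fibroblast markers, 0 passed 2-fold. The part of muscle, thermogenic or epithelial cells in the values of Fitm1, Plin5 and Cidea was not tested.

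**Figure D3:**
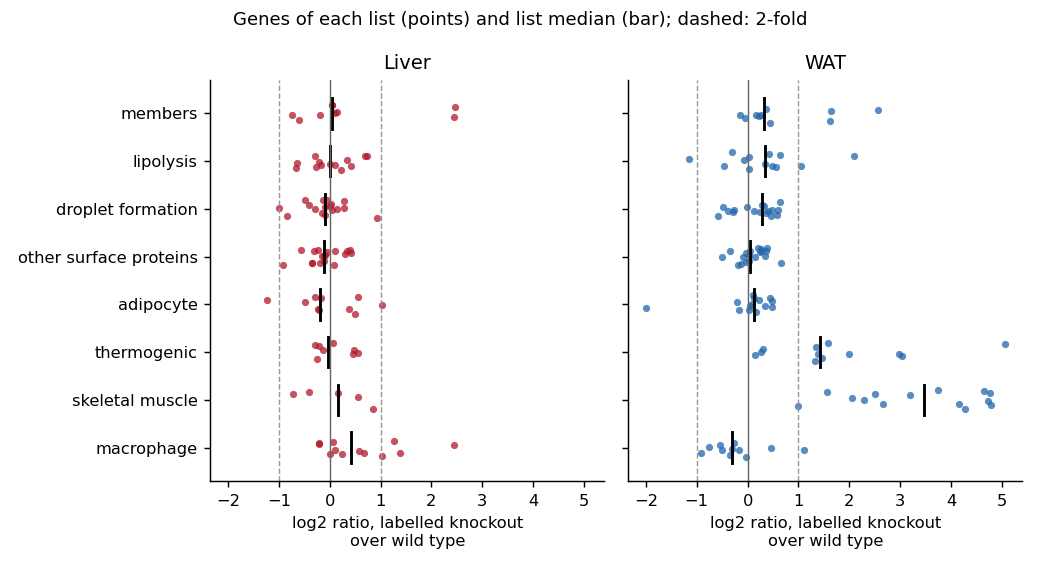
Log2 ratio of labelled knockout over wild type for every measured gene of 8 lists (points) with the list median (bar), in liver (left) and WAT (right), with dashed lines at 2-fold. In WAT the thermogenic and skeletal muscle lists lie to the right (medians 1.42 and 3.46) while the adipocyte list is near 0 (0.12), and in liver 2 members stand past 2-fold while the members' median is 0.06.

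The 2 tissues are set against each other to show where each member is expressed. WAT was far above liver for Plin1, Cidea, Cidec and Plin4, and far below it for Cideb, Fitm1 and Plin5. On the wild-type arrays Plin1 was 1920-fold higher in WAT than in liver, the 2nd highest of 15305 measured genes, Cidea 679-fold (8th), Cidec 345-fold (13th) and Plin4 31.5-fold higher (121st). Fitm2 was 2.89-fold higher in WAT. In the other direction Cideb was 168-fold lower in WAT than in liver, Fitm1 23.0-fold and Plin5 8.09-fold lower. Plin2 and Plin3 were close in both tissues, with log2 ratios of 0.10 and 0.18. For genes near background in liver these folds depend on how background is removed: with normexp and an offset of 50 the log2 ratio of WAT to liver was 8.47 for Plin1 against 10.91, 7.46 for Cidea against 9.41, 7.55 for Cidec against 8.43, and -2.95 for Fitm1 against -4.53.

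In all, 8 of 10 members differed at least 2-fold between wild-type WAT and wild-type liver, where 33.7% of all measured genes did: 5 were higher, beside 18.1% of all genes, and 3 lower, beside 15.6%. On the labelled-knockout arrays 9 members were measured in both tissues and 7 of 9 differed at least 2-fold, beside 31.4% of all genes: 4 were higher, beside 17.7%, and 3 lower, beside 13.7%. Plin1 had no ratio there. Its 43.7 in labelled-knockout WAT was 2920-fold above 0.0149, the lowest signal well above background in labelled-knockout liver, which again is not a lower bound. The higher tissue was the same in both genotypes: the 6 other members with more signal in wild-type WAT than in wild-type liver also had more in labelled-knockout WAT than in labelled-knockout liver, and the 3 with less had less, except that Plin3 was at -0.05 in labelled knockout without scaling between arrays. For Plin2 and Plin3 the tissues did not differ beyond the SD between probes of 0.63 for labelled knockout and 0.67 for wild type, except for Plin2 with quantile normalization (0.70 in labelled knockout and 0.77 in wild type).

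The gap between the tissues was narrower on the labelled-knockout arrays for Cidec, Plin5 and Fitm1. Cidec had a log2 ratio of WAT to liver of 6.33 in labelled knockout and 8.43 in wild type, as its liver level was higher. Plin5 had -1.45 in labelled knockout and -3.02 in wild type, and Fitm1 -1.23 in labelled knockout and -4.53 in wild type, as their WAT levels were higher. Expressed as the log2 ratio of labelled knockout to wild type in WAT minus the same ratio in liver, the differences were -2.10 for Cidec, 1.57 for Plin5 and 3.30 for Fitm1. The 6 other members with a value in both tissues had differences between -0.81 (Cidea) and 0.46 (Plin4). The sign for Cidea turned with normexp, to 0.82 at an offset of 50 and 0.62 at an offset of 0, and without scaling between arrays it was -1.14, past 2-fold. With normexp at an offset of 50, Cidec was at -1.39 and Fitm1 at 2.06. These 2 sets of ratios are formed from the same 4 arrays, and the differences were not tested.

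**Figure D4:**
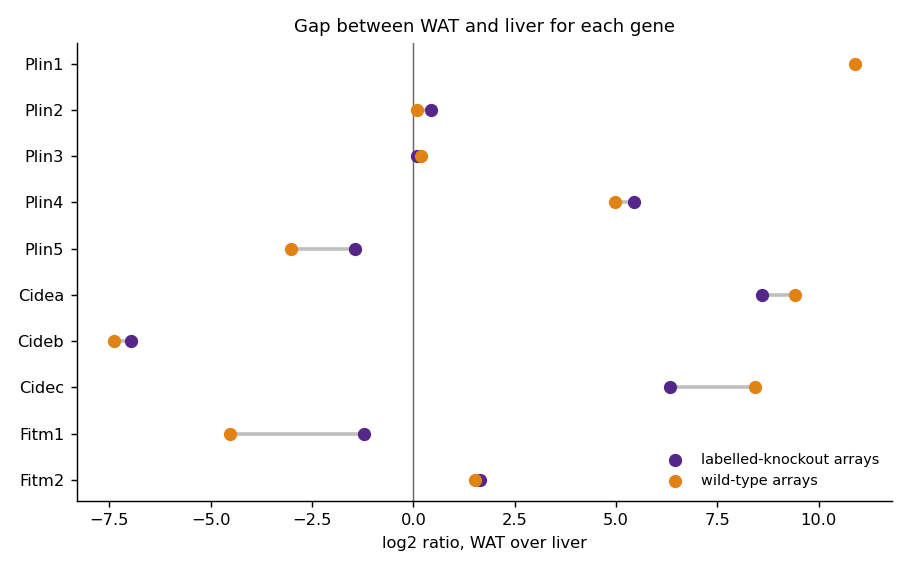
Log2 ratio of WAT to liver for each of the 10 genes on the labelled-knockout arrays (purple) and the wild-type arrays (orange), with a line between the 2 values of a gene. The lines are longest for Fitm1, Cidec and Plin5, and Plin1 has only a wild-type point because it was not well above background in labelled-knockout liver.

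The other genes that build, coat and empty the droplet were read from 3 lists. The lipolysis list also holds genes that are not lipases or their regulators, namely Cpt1a, Cpt1b and Aqp7. In liver, 0 of 13 genes of that list and 0 of 17 genes of droplet formation and triglyceride synthesis reached 2-fold in either direction. The same held for 0 of 18 measured genes of a list of other droplet surface proteins, beside 2.64% of all genes. Their median log2 ratios were 0.01, -0.09 and -0.12. Pnpla2 (ATGL), the first triglyceride lipase, had 10.7 in labelled-knockout liver and 9.16 in wild-type liver, and its inhibitor G0s2 8.08 and 8.02. Hilpda, a further inhibitor of that lipase, was at a log2 ratio of 0.70 with both of its probes (0.69 and 0.71). The carboxylesterases Ces1d and Ces1f were at -0.65 and -0.64, the acyl-CoA synthetase Acsl4 at 0.94 and the phosphatidate phosphatase Lpin1 at -0.85. Mogat1, a monoacylglycerol acyltransferase, had 0.0622 in labelled-knockout liver and 0.124 in wild-type liver, just within 2-fold. In the surface protein list, Ethe1 was at -0.91, Clstn3 at -0.55, and the sterol enzymes Sqle and Hsd17b7 at 0.42 and 0.41. A place in that list does not show that a protein lies on droplets, which holds for Ethe1 and S100b in particular.

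In WAT, 2 of 13 lipolysis genes were at least 2-fold higher and 1 lower, beside 4.18% of all genes past 2-fold in either direction. Cpt1b, the muscle and brown fat form of the mitochondrial acyl-carnitine transferase, had 2.12 in labelled-knockout WAT and 0.485 in wild-type WAT, a log2 ratio of 2.10 with probes at 1.91 and 2.29. Ces1f was at 1.04 and Pnpla3 at -1.16, with 5.10 in labelled-knockout WAT and 12.0 in wild-type WAT. Abhd5, the activator of ATGL that Plin1 holds in the resting adipocyte, was at 0.64. Of the 17 formation genes and the 19 genes of the surface protein list, 0 reached 2-fold in either direction, beside 4.18% of all genes, with medians of 0.28 and 0.05. The largest ratios were 0.65 for Gpam, 0.60 for Dgat1, -0.58 for Lpin3 and 0.57 for Acsl1 among the first, and 0.66 for Clstn3, -0.49 for Lpcat1, 0.37 for S100b and 0.35 for Spast among the second. S100b had 0.856 in labelled-knockout WAT and 0.661 in wild-type WAT and was not well above background on either liver array.

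Each member measured on all 4 arrays was set against 14887 other genes by the Euclidean distance between the 4 log2 levels, after the mean over the arrays was taken off. The nearest genes to Cidec were Slc1a5 and Parm1, at distances of 1.24 and 1.29, and to Cidea Arxes2 and Prkar2b, at 1.44 and 1.78. These distances were larger than those of the other members compared, but an unscaled distance also depends on the size of the tissue gap. Genes not measured on all 4 arrays, such as Plin1, Adipoq and Cfd, were not compared. Close to Plin5 was Slc25a34 (0.29), and close to Cideb was Cyp2c23 (0.17). Fitm1 had Mpzl2 (0.39) and Adtrp (0.46) nearest, and Plin4 had Art3 (0.22) and Wt1 (0.32). Plin2, Plin3 and Fitm2 had nearest genes at distances between 0.01 and 0.05, namely Qtrt2 and Stpg2, Krcc1 and Cdk12, and Mcrs1 and Mylip. The distances describe these 4 arrays alone.

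**Figure D5:**
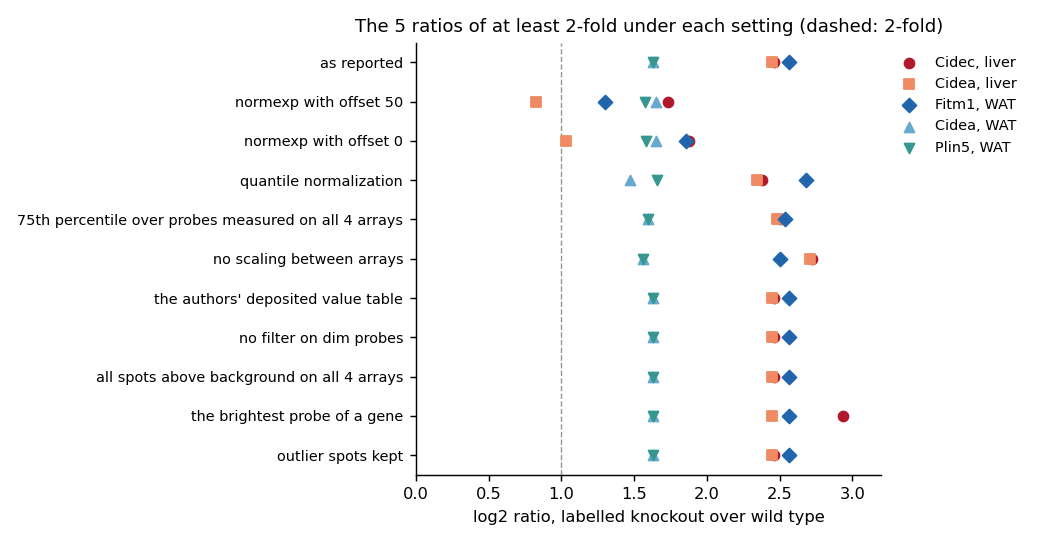
The 5 log2 ratios of labelled knockout over wild type that reached 2-fold (Cidec and Cidea in liver, Fitm1, Cidea and Plin5 in WAT), on the x axis, as reported and under 10 other settings in rows, with a dashed line at 2-fold. The only point left of the line is Cidea in liver with normexp and an offset of 50 (0.83), and the points of Cidea and Plin5 in WAT stay between 1.47 and 1.66. The deposited table, the filter settings, the brightest probe and outlier spots kept could not move the genes with 1 probe (Cidea, Fitm1 and Plin5).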

How the data were processed

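The deposited spot intensity values came, per the file headers, from Agilent Feature Extraction 11.0.1.1, 1-colour (Cy3), with 43020 spots that are not controls, on an mm9 probe annotation; the processed intensity was corrected within the array for background and trends and not scaled between arrays. A deposited table of linear signal for the whole series equalled the processed signal over 1 constant per array. The constants were 1764, 1470, 1613 and 1690 for labelled-knockout liver, wild-type liver, labelled-knockout WAT and wild-type WAT, with column medians of 0.0751, 0.0737, 0.0875 and 0.0876. They were nearly the same as the 75th percentiles used here (1764, 1470, 1613 and 1689). The table was run as an alternative but repeats the scaling used here. The deposited spot flags (other values of 0 or 1) marked background, saturation and outliers.

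From these intensities, each processed signal was divided by its array's 75th percentile and log2 was taken with Python 3.11.15 and pandas 2.3.3; outlier spots (79 to 110 per array) were left out and spots of a probe averaged. A probe counted as measured when the share of its spots flagged well above background exceeded 0.5 and 0 were saturated; a gene's ratio was the mean over its probes. For a gene measured on only 1 of 2 arrays, no ratio is given, only its fold above the other array's lowest signal well above background. RefSeq (GRCm38.p6) named 27234 probes by accession, 3576 by symbol and 565 by synonym. The 8054 probes without a RefSeq symbol were left out of the gene counts and shares. Groups follow the sample titles. Normexp and quantile normalization used limma 3.58.1 in R 4.3.3. The steps were tested on simulated data with planted differences. The 4 arrays shared 1 slide, and their number limits the precision.

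The members, lists and the 2-fold limit were chosen with earlier results of these data known. All 10 members were named, with up to 4 genes of each further list per knockout comparison by largest log2 ratio, of which some are given as counts only, and the 2 nearest genes in pattern, of which some are not reported here. Pnpla2, G0s2, Adipoq, Zic1, Prdm16, Ebf2, Lhx8, Cyp2e1, Trf, Cfd, Lgals12, and Cd36, Pparg, Cd9, Spp1, Adgre1, Clec4f, Gpnmb and S100b in liver, were named outside that rule, after their values were seen. Probes to print were to be chosen by a match to RefSeq proteins; with no protein table used here, the 2 probes shown were chosen by gene and position. No test was run for any value.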

Additional observations from a re-analysis of the deposited data

Results flagged for a closer look

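Fitm1 had opposite directions in the tissues. Its log2 ratio of labelled knockout to wild type was 2.57 in WAT and -0.73 in liver, a difference of 3.30, which was 2.06 with normexp at an offset of 50 and 2.67 at an offset of 0, each with 1 probe and past the scanner software's error. With 1 array in each group the difference between the tissues was not tested. The wild-type WAT signal, at 0.0172 times the 75th percentile, was close to the lowest signal well above background on that array (0.0126), and the skeletal muscle list was higher on the same labelled-knockout WAT array with a median log2 ratio of 3.46.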

How the results depend on the processing

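Of 10 alternative settings, 9 left 2 members at least 2-fold different in liver and 1, normexp with an offset of 50, left 1 (Cidec). The cause was not tested. Not all settings were independent checks. The deposited table repeats the scaling used here. With it, the 2 other filters, the brightest probe or outlier spots kept, a gene with 1 probe measured on all 4 arrays keeps its ratio. For Cidea in liver these gave 2.44 as reported. The counts of 3 members in WAT, 8 in wild-type WAT against liver, 7 in labelled-knockout WAT against liver and 3 whose tissue difference changed by at least 1 on the log2 scale stayed within 1.5 times under all 10 settings. No member past 2-fold changed sign; the tissue difference of Cidea, at -0.81, was 0.82 and 0.62 with normexp at offsets of 50 and 0. Over all genes the share at least 2-fold different was 2.64% in liver, 10.1% with normexp at an offset of 0 and 5.18% with no filter on dim probes; in WAT it was 4.18%, 2.35% with normexp at an offset of 50 and 6.34% with no filter. The share of higher among these genes in liver was 66.4%, and 29.9% and 7.15% with normexp at offsets of 50 and 0, which moved the median of all genes by -0.16 and -0.17; without scaling it was 87.8% and the median moved by 0.26. In wild-type WAT against liver that share was 53.8%, and 43.4% and 37.7% with normexp, where the median moved by -0.25 and -0.27, and it moved by 0.20 without scaling. In labelled-knockout WAT against liver the median moved by -0.13 without scaling and 0.14 with no filter. No paired analysis was possible because each group had 1 array, and slide as a block was not run because all arrays lay on 1 slide.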
